A study of Mus musculus with 2 samples.

Results

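Cells with transcripts of the inner root sheath keratins were collected from mouse anorectal epithelium, where squamous anal canal meets glandular rectum. The cells were chosen by their keratin counts, and a cell was taken as an inner root sheath keratin cell when 3 or more of its UMIs (unique molecular identifiers, each counting 1 captured transcript) came from Krt25, Krt27, Krt28, Krt71 and Krt73 together. Of 6773 cells that passed the filters (more than 200 but fewer than 5000 genes seen and mitochondrial UMIs below 25%), 95 met this rule, 15 of 1548 in the normal library and 80 of 5225 in the wounded library. The 2 libraries of 10x 3′ single-cell RNA-seq held anorectal junction cells of K17CreERT2;R26R-GFP mice on the C57/BL6J strain, given tamoxifen on 2 occasions before the cells were taken. In these mice the Krt17 promoter drives a tamoxifen-inducible Cre that switches on a green fluorescent reporter, and both libraries carry both alleles. The normal library came from unwounded tissue. The wounded library came from mice whose tissue next to the transition zone (TZ, the border between the 2 epithelia) had been stripped with EDTA and brushing 1 week earlier. Each library pooled at least 5 mice, females and males, and the wounded mice were 2 to 4 months old. Live Epcam-positive cells were sorted against markers of leukocytes, endothelium and fibroblasts, so the sort sets which cells could be found. There was 1 library per condition, so no test between conditions was possible. Condition, library and Cell Ranger version (3.1.0 in the normal matrix header, 4.0.0 in the wounded one) cannot be told apart.

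The inner root sheath is a set of concentric layers that surrounds the growing hair shaft and moulds it. Its cells are born in the hair matrix at the base of the follicle, move upwards, fill with keratin filaments and trichohyalin, and harden before the hair itself does. The filaments pair a type I keratin with a type II keratin, and Krt25, Krt27 and Krt28 are type I while Krt71 and Krt73 are type II. The transcription factors Gata3, Cux1 and Dlx3 are known for their parts in this lineage, and Lef1, Msx1, Msx2, Foxn1 and Hoxc13 act in the matrix and the shaft.

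In the GENCODE M21 annotation of GRCm38 (mm10) the type I genes lie close together on the minus strand of chromosome 11, Krt25 at chr11:99315516-99322951, Krt27 at chr11:99345565-99351104 and Krt28 at chr11:99364872-99374903. The type II genes lie on the minus strand of chromosome 15, Krt71 at chr15:101733949-101743109 and Krt73 at chr15:101793308-101802346. The 250 bases before each RefSeq start are shown because these genes define the cells and because Gata3, Dlx3 and Lef1, factors whose families bind the motifs searched, were measured in the same cells. The sequences are RefSeq GRCm38.p6, minus strand, 5′ to 3′, at chr11:99322952-99323201 for Krt25, chr11:99351119-99351368 for Krt27, chr11:99374904-99375153 for Krt28, chr15:101743098-101743347 for Krt71 and chr15:101802361-101802610 for Krt73. Capitals mark 3 motifs. The motif of GATA factors was searched as AGATAA, read on the other strand as TTATCT. The motif of homeodomain factors was searched as TAATTA, which reads the same on both strands. The motif of LEF/TCF factors was searched as CTTTGA, read on the other strand as TCAAAG.
Krt25: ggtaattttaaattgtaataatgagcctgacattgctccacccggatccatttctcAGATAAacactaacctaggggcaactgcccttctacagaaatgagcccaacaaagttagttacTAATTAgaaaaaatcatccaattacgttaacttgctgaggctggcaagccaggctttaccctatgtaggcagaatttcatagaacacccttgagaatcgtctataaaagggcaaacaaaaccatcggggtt
Krt27: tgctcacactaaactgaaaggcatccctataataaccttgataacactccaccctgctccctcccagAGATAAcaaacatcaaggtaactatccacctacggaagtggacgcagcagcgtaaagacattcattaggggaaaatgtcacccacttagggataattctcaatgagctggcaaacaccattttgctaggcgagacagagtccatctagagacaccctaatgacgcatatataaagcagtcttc
Krt28: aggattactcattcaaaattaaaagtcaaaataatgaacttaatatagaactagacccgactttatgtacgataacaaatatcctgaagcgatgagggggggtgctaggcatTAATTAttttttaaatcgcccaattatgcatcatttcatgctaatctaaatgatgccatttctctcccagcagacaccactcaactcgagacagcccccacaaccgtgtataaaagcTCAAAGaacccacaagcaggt
Krt71: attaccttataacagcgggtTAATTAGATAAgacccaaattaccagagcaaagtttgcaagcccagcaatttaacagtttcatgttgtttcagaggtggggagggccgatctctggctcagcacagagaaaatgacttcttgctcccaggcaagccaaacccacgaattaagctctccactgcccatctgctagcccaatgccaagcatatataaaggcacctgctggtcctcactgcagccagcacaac
Krt73: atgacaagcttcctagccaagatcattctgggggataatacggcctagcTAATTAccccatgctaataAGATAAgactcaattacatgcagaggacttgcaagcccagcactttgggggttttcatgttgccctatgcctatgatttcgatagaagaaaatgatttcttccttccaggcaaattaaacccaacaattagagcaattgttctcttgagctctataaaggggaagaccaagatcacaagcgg
The GATA letters were present in 4 of the 5 windows, all but that of Krt28, and in 9.99% of 32851 RefSeq windows of this length. The homeodomain letters were present in 4 of the 5, all but that of Krt27, and in 4.84% of all windows. The LEF/TCF letters were found before Krt28 alone, against 13.8% of all windows. In the Krt71 window the GATA and homeodomain matches overlap. The matches are a description of letters, not of bound sites.

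The inner root sheath keratin cells made up 0.969% of filtered normal cells (15 of 1548, exact 95% interval 0.543 to 1.59%) and 1.53% of filtered wounded cells (80 of 5225, 1.22 to 1.90%). The intervals overlap and, like all intervals here, cover counting error only. Over both libraries 1 barcode sequence was shared, and it belonged to no filtered cell. The cells were not shallow. Their median depth was 11335 UMIs in the normal library (range 4595 to 27864) against 9433 in the other filtered cells, and 10852.5 in the wounded library (range 772 to 37864) against 10027. Median mitochondrial shares were 4.24% against 4.59% in the normal library and 6.76% against 8.38% in the wounded library. At the edge of the rule, 4 normal and 15 wounded cells had exactly 3 keratin UMIs, while 9 normal and 66 wounded cells had 2 and stayed outside. Median depths just outside were 17832 and 14277.5 UMIs, and just inside 22424 and 13267, so cells near the edge were among the deep ones.

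The cells were spread very unevenly over the cluster names that the authors deposited. In the wounded library 46 of the 80 were named Hybrid, where they made up 14.6% of the 316 filtered cells of that name (10.9 to 18.9%) and held 29.7% of its UMIs. Another 13 were named Regeneration (1.31% of 991), 7 Wound_Stress (0.835% of 838), 5 Basal (0.873% of 573) and 2 Suprabasal (0.194% of 1032), and 7 were in no deposited table (0.649% of 1078). In the normal library 13 of the 15 were in no deposited table (2.13% of 610, 1.14 to 3.62%), with 1 named Basal and 1 Suprabasal. The study took clusters of hair follicle, anal gland and fibroblast cells out of both libraries after a first clustering, and dropped further normal cells that expressed Lgr5, Lhx2 or Tbx1. None of the 432 normal Anal Canal cells, the 63 normal Rectum cells or the 397 wounded Rectum cells met the rule, and counts of 0 leave exact upper limits of 0.850%, 5.69% and 0.925%. Free keratin RNA in the droplets was gauged from rectum cells, which should lack these genes. In the wounded library 2.52% of Rectum cells had any keratin UMI (10 of 397, median depth 9991 UMIs), against 15.1% of the Regeneration cells outside the rule (148 of 978, median depth 12581.5), 11.1% of Wound_Stress cells and 5.93% of the other Hybrid cells. Wounded Basal and Suprabasal cells outside the rule stood at 1.58% and 4.85%, and undeposited ones at 10.4%. In the normal library 1.59% of Rectum cells had any keratin UMI (1 of 63, 0.0402 to 8.53%, median depth 10885). The share was 10.9% in undeposited cells outside the rule (8.50 to 13.7%, median depth 8936). It was 0.231% in Anal Canal cells, and 8.20% and 4.86% in Basal and Suprabasal cells outside the rule.

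**Figure D1:**
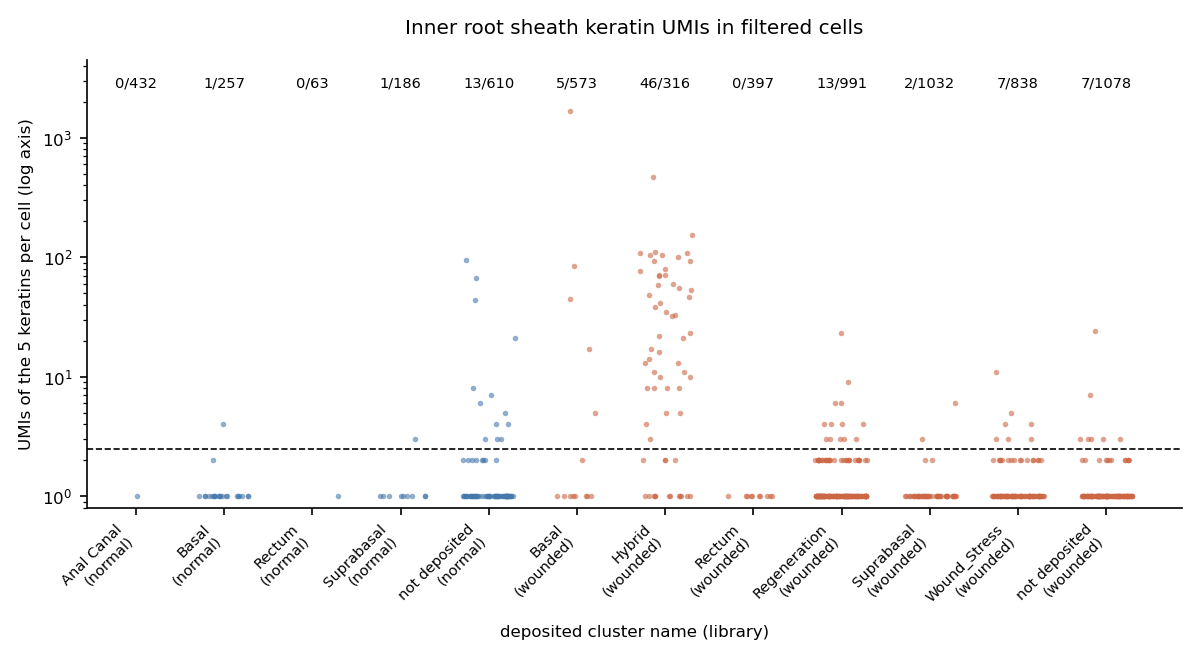
UMIs of the 5 inner root sheath keratins per filtered cell (log axis, cells at 0 not drawn) by deposited cluster name, normal in blue and wounded in red, 1 point per cell. The dashed line is the limit of 3 UMIs and the fractions give cells past it over all cells of the name; 46 of 316 Hybrid cells pass it, up to 466 UMIs, and the highest cell, at 1678, is named Basal.

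Keratin amounts varied widely among the cells. These values chose the cells and are given as description. The normal cells held between 3 and 95 keratin UMIs (median 5), and 4 cells had 10 or more, at 95, 67, 44 and 21. The wounded cells held between 3 and 1678 (median 12), and 45 cells had 10 or more, 38 of them named Hybrid. The first of these, named Basal, had 19437 UMIs in all, of which 8.63% were keratin UMIs, 751 from Krt25, 718 from Krt71, 141 from Krt27, 65 from Krt28 and 3 from Krt73. The next cell had 466. The 5 keratins together reached 1416 counts per 1e6 UMIs (CPM) in the normal cells (1254 to 1593) and 4707 in the wounded cells, or 3023 without the highest cell.

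Single keratins were seen in different numbers of cells. Krt28 was found in 11 of 15 normal cells (101 UMIs) and 62 of 80 wounded cells (625 UMIs). Krt25 was found in 7 normal cells (62 UMIs) and 52 wounded cells (1904 UMIs), of which 39.4% came from 1 cell. Krt27 was found in 8 and 49 cells (23 and 296 UMIs). Of the type II genes, Krt71 was found in 6 normal cells (18 UMIs) and 36 wounded cells (1455 UMIs, 49.3% in 1 cell), and Krt73 in 5 and 24 cells (73 and 247 UMIs). A type I and a type II keratin occurred together in 6 normal and 43 wounded cells, type I alone in 7 and 36, and type II alone in 2 and 1. All 5 keratins were present in 2 normal and 10 wounded cells.

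Genes outside the rule gave the check on the label. Of 11 further inner root sheath genes listed, Krt26 and Krt72 had 0 UMIs in the cells of both libraries and Krt74 was not a feature. Summed over the list, the normal cells stood at 1222 CPM and the rest of the library at 163 (log2 ratio 2.90, 2.71 to 3.09). The wounded cells stood at 928 CPM against 182, a log2 ratio of 2.35 (2.25 to 2.45). Few genes made up these sums. Of the 10 list features 5 had 0 UMIs in the normal cells and 3 in the wounded cells. Gata3, Cux1 and Dlx3 held 133, 73 and 29 of the 239 normal UMIs. In the wounded cells Cux1, Gata3, Tchh and Dlx3 held 365, 234, 229 and 51 of 893, and 163 of those of Tchh lay in 1 cell. The normal ratio was 2.57 in the 13 undeposited cells alone. The 2 deposited cells alone gave -0.62 (-3.66 to 1.24), an interval too wide to give a direction. The wounded value was 0.61 in the 7 undeposited cells alone and 1.69 with a rule of 2 UMIs in place of 3. A gene was called higher or lower when it was at least 2-fold apart with an exact 95% interval that left out equality, among genes with 20 or more UMIs over both groups. In the normal library 3 of the 5 tested list genes were called higher, against 7.91% of all 12694 genes tested, and none lower, against 2.73%. In the wounded library 4 of 6 were called higher, against 5.48% of 15175 genes, and 1 lower, against 5.42%. The median log2 ratio of the tested list genes was 2.80 in the normal and 2.08 in the wounded library, beside 0.00 and -0.04 over all genes tested. Over all genes, 1004 were called higher and 347 lower in the normal library, and 831 and 823 in the wounded library. With median-of-ratios scaling, which moves every ratio by -0.35 and -0.14, these became 565 and 657, and 641 and 1021.

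Of the listed genes Dlx3 stood furthest apart from the rest of each library. This homeodomain factor, at chr11:95120119-95125296 (plus strand), had 29 UMIs in 9 of 15 normal cells, 148 CPM against 2.15 elsewhere (log2 ratio 6.11, 5.34 to 6.87). In the wounded library it had 51 UMIs in 29 of 80 cells, 53.0 CPM against 0.497, a log2 ratio of 6.74 (6.04 to 7.47). Cux1, a homeodomain repressor at chr5:136248135-136567490 (minus strand), had 73 UMIs in 13 normal cells (373 CPM against 34.9, log2 ratio 3.42, 3.05 to 3.77). For the wounded library it had 365 UMIs in 62 cells (380 CPM against 53.3, log2 ratio 2.83, 2.67 to 2.99). Cux1 was thus seen in most of the cells of each library. Dlx3 was seen in 9 of 15 normal cells but in a smaller part of the wounded cells, 29 of 80. Gata3, the zinc-finger factor at chr2:9857078-9890034 (minus strand), had 133 UMIs in 13 normal cells (680 CPM against 97.4, log2 ratio 2.80, and 2.26 without the cell with most). Among the wounded cells it had 234 UMIs in 68 cells (243 CPM against 97.6, log2 ratio 1.32, 1.12 to 1.51). The Gata3 ratio turned in the 2 deposited normal cells alone (-0.21, -5.51 to 2.28). It also turned in the 7 undeposited wounded cells alone (-0.053, -0.84 to 0.63). Its contrast was the smallest of the 3 factors, and the other filtered cells also held Gata3.

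The 3 factors were also counted with every cell thinned to 2000 UMIs. Dlx3 was then found in 26.7% of 15 normal cells against 0.552% of 1448 others, and in 6.41% of 78 wounded cells against 0.123% of 4877 others. None of 60 normal or 354 wounded Rectum cells had it. Cux1 was found in 53.3% and 52.6% of the cells against 6.28% and 9.90% of the others, with 8.33% and 11.9% in Rectum. Gata3 was found in 40.0% and 37.2% against 16.6% and 15.7%, with 0 of 60 and 0.565% in Rectum. Thinning left out 2 wounded cells of the rule and 85 normal and 268 wounded others.

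Trichohyalin, the granule protein of the inner root sheath, was a feature of a few wounded cells. Tchh, at chr3:93442330-93449077 (plus strand), had 229 UMIs in 16 wounded cells (238 CPM against 8.95, log2 ratio 4.73, 4.50 to 4.96), of which 163 lay in the cell with most keratin. Without that cell the ratio was 2.97. In the normal cells Tchh had 1 UMI. Tgm3, a transglutaminase that crosslinks hardened layers, had 9 UMIs in 5 wounded cells and was the list gene called lower (log2 ratio -1.14).

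**Figure D2:**
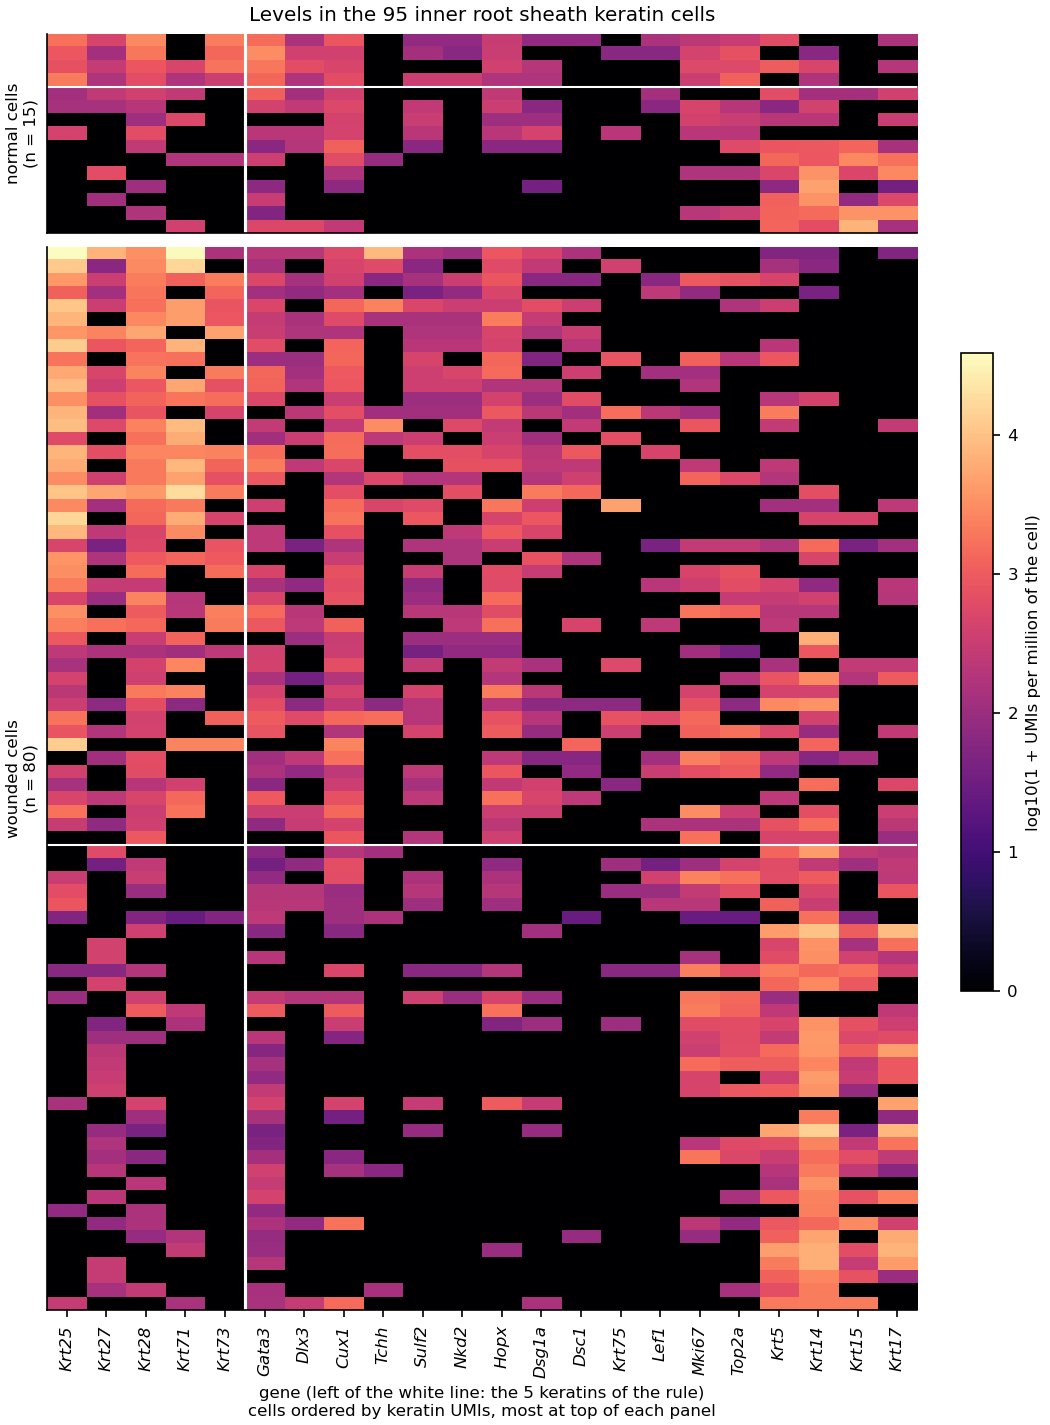
Level of 5 rule keratins (left of the white line) and other genes (columns) in each of the 15 normal and 80 wounded cells (rows, most keratin UMIs at the top of each panel), as log10(1 + CPM). The horizontal white lines mark 10 keratin UMIs; above them Cux1 is seen in 4 of 4 normal cells, 35 of 36 wounded cells with 10 to 99 keratin UMIs and 9 of 9 with more, and below them Krt14 is seen in 32 of 35 wounded cells.

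The cells were of more than 1 kind, and keratin amount went with it. On the wounded side the 35 cells with 3 to 9 keratin UMIs had Krt14, the basal type I keratin, at 3312 CPM, seen in 32 of 35 cells. It was at 990 CPM in the 36 cells with 10 to 99, seen in 22, and at 25.4 CPM in the 9 cells with 100 or more, seen in 3. Krt17 went from 1577 to 171 and 8.47 CPM over the same bands, Krt5 from 1090 to 414 and 254, and Krt15 from 437 to 33.5 and 0. The lineage genes ran the other way. Dlx3 was at 21.3, 85.3 and 102 CPM (6 of 35, 17 of 36 and 6 of 9 cells), and Cux1 at 188, 597 and 610 CPM (18 of 35, 35 of 36 and 9 of 9 cells). Hopx, a homeodomain-like cofactor, was at 60.1, 524 and 838 CPM, and Nkd2, an inhibitor of Wnt signalling, at 3.88, 88.4 and 119. The desmosomal cadherin Dsg1a was at 19.4, 122 and 186 CPM, and Dsc1 at 3.88, 85.3 and 76.2. Gata3 was at 144, 399 and 246 CPM, so it was lowest in the first band without following the order of the other bands. Of the cell cycle genes, Mki67 was at 400, 460 and 330 CPM, Top2a at 303, 289 and 144, Birc5 at 151, 149 and 93.1, and Pcna at 169, 128 and 50.8, each lowest in the cells with most keratin. The immediate-early gene Fos was at 1088, 302 and 33.9 CPM, Junb at 541, 262 and 42.3, and the lipid gene Scd1 at 1191, 536 and 59.3. Median depth was 13881, 7739.5 and 15192 UMIs and median mitochondrial share 6.49%, 8.10% and 8.81% in the 3 bands. The part of depth in these differences was not tested.

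**Figure D3:**
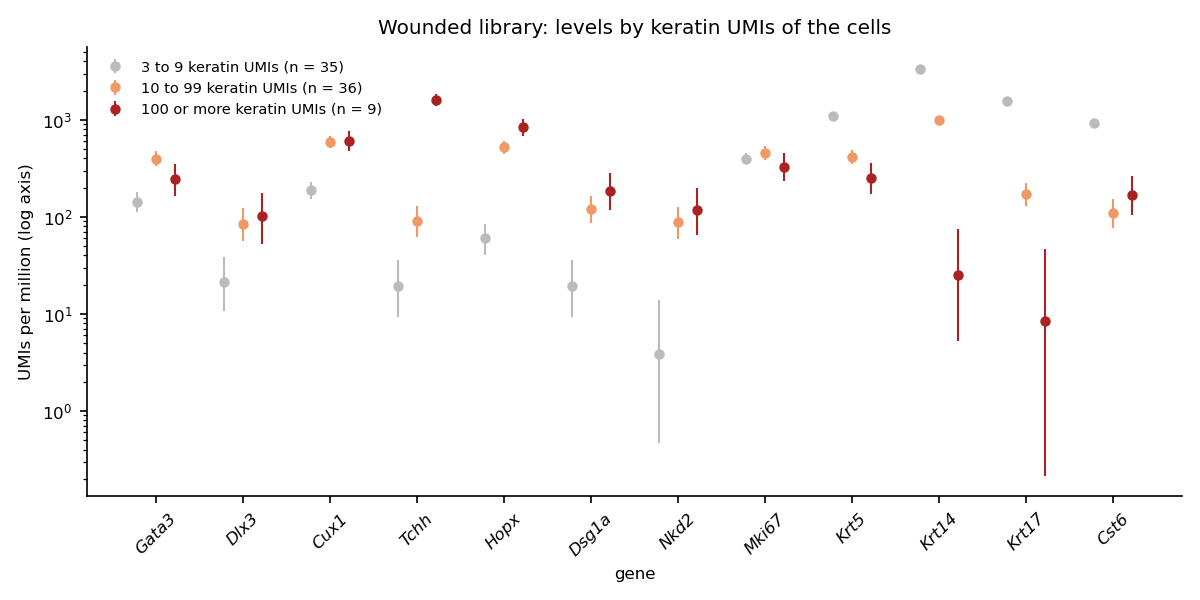
Level of 12 genes (CPM, log axis, bars are exact 95% Poisson intervals) in wounded cells with 3 to 9 (35 cells), 10 to 99 (36 cells) and 100 or more (9 cells) keratin UMIs. Krt14 stands at 3312, 990 and 25.4, while Hopx stands at 60.1, 524 and 838.

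The 4 normal cells with 10 or more keratin UMIs also held the lineage factors. Gata3 had 20, 49, 20 and 8 UMIs in them, Dlx3 2, 6, 7 and 1, and Cux1 11, 6, 5 and 4, in the order of their keratin sums of 95, 67, 44 and 21. Each of the 4 held all 3 factors. At band level Gata3 was at 2135 CPM in these 4 cells and 240 in the 11 cells with 3 to 9 keratin UMIs, Dlx3 at 352 and 86.5, and Cux1 at 572 and 313. Krt14 was at 154 and 2070 CPM, Krt17 at 88.0 and 845, and Krt15 at 0 and 1205. Gjb2, a gap junction connexin, was at 726 and 226 CPM. Mki67 and Top2a were higher in the 4 cells than in the 11, at 396 and 113 CPM and at 638 and 153 CPM, and Tchh had 0 UMIs in the 4 cells.

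The label was borne out by the other lineage genes in cells with much keratin, but not in all others. Of the cells with much keratin, 1 wounded cell with 110 keratin UMIs also held 119 UMIs of the hair shaft keratin Krt35. It held 120 UMIs of S100a3 and 13 of Hoxc13 as well. The clearest exception to the label was 13 wounded cells that met the rule by Krt27 alone, 8 named Regeneration and 5 Wound_Stress, with 57 keratin UMIs between them and at most 9 in a cell. In these 13 cells Dlx3, Lef1, Hopx, Sulf2 and Nkd2 had 0 UMIs each, at a median depth of 14913 UMIs. Other such genes were not all at 0. Tchh had 2 UMIs in 1 of the 13 cells and 1 UMI in another, and Sox21 had 3 UMIs in 1 cell. Cux1 had 5 UMIs in 2 cells (27.4 CPM). Krt14 was present in all 13 (3375 CPM), Krt17 stood at 1380 CPM and Gata3 at 142. The 43 wounded cells with both keratin types, 32 of them Hybrid, had Dlx3 in 19 cells (73.9 CPM), Cux1 in 41 (548 CPM), Gata3 in 36 (369 CPM) and Krt14 in 23 (1008 CPM), at a median depth of 6872 UMIs. The 23 cells with type I keratins other than Krt27 alone had Dlx3 in 10 (57.3 CPM), Cux1 in 19 (372 CPM) and Krt14 at 2653 CPM. Krt27 was also scattered over cells outside the rule. It was found in 6.44% of the other Regeneration cells (78 UMIs in 63 cells) and 4.09% of the other Wound_Stress cells, against 0.0971% of Suprabasal and 0 of 397 Rectum cells. These groups by keratin type were drawn after the values were seen, and the cells are called here by their rule for this reason.

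Within the name Hybrid the 46 cells of the rule were set against the 270 others. Gata3 was at 336 CPM against 46.1 (log2 ratio 2.87, 2.39 to 3.37), Dlx3 at 97.5 against 6.72 (3.86, 2.70 to 5.26) and Cux1 at 660 against 107 (2.62, 2.30 to 2.95). Nkd2 was at 83.9 CPM against 1.92 (5.45), Tchh at 125 against 2.88 (5.44) and Hopx at 603 against 107 (2.49). Of the cell cycle genes compared here, Mki67 was at 565 CPM against 134 (2.07), Top2a stood at 1.43, Birc5 at 1.40 and Pcna at 0.95. The lineage factors were thus higher in the 46 cells than in the others of the same name. Other hair follicle genes were less far apart, and the 270 others held them too. Krt35 had 266 UMIs in 15 of these others, 255 CPM against 274 in the 46 cells (0.10). Hoxc13 stood at 0.95, Lhx2 at 0.88 and Lgr5 at 0.14, while Lef1 (1.75), Krt75 (2.46) and Msx1 (2.83) stood further apart. Genes of the neighbouring epithelia were lower in the 46 cells. Krt14 was at 470 CPM against 2734 (-2.54, -2.75 to -2.34) and Krt17 at 243 against 1530 (-2.66). Cst6, a cystatin of ducts and upper follicles, was at 83.9 CPM against 5788 (-6.11). The rectal keratins Krt8 and Krt18 were at 52.2 CPM against 590 (-3.50) and at 13.6 against 236 (-4.12), and the rectal mucin Muc13 had 0 UMIs against 111 (log2 ratio at or below -3.97, from 3 UMIs). Krt14 was still seen in 23 of the 46 cells and Krt17 in 17, so these transcripts were lower than in the rest of the Hybrid cells but not absent. Median depths were 7739.5 UMIs against 2113, and the part of this gap was not tested. With cells thinned to 2000 UMIs, Cux1 was found in 75.0% of 44 against 16.4% of 140, Gata3 in 22 of 44 cells against 7.86%, and Hopx in 75.0% against 11.4%.

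**Figure D4:**
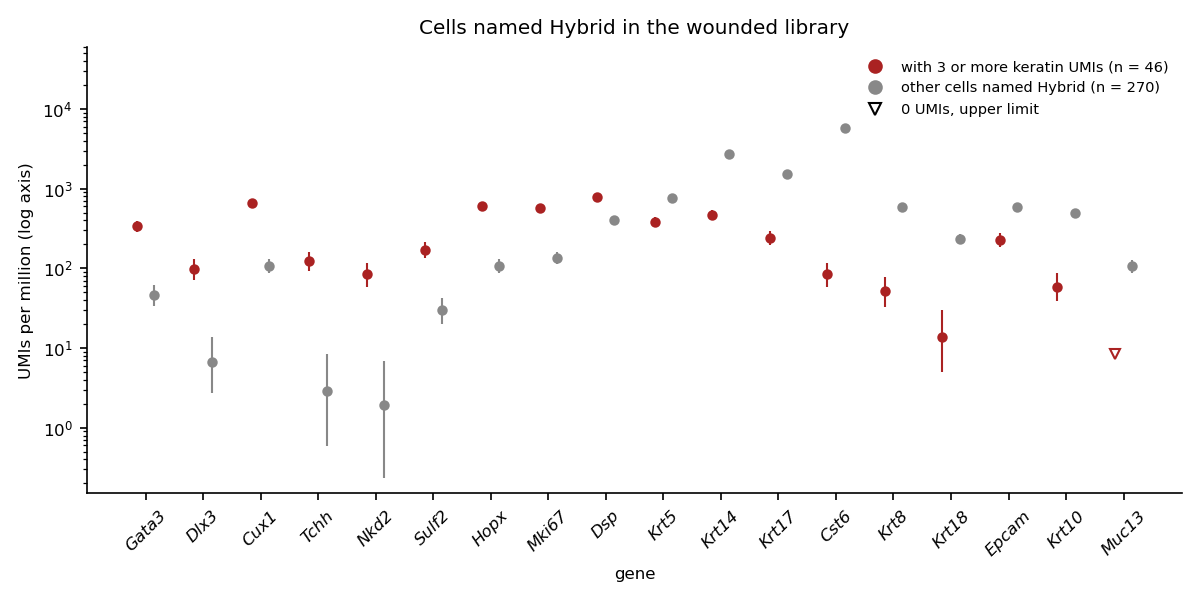
Level of 18 genes (CPM, log axis, bars are exact 95% Poisson intervals, the open triangle an upper limit from 0 UMIs) in the 46 Hybrid cells with 3 or more keratin UMIs (red) and the 270 other Hybrid cells (grey). Dlx3 stands at 97.5 against 6.72, Krt14 at 470 against 2734 and Krt8 at 52.2 against 590.

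The 45 wounded cells with 10 or more keratin UMIs differed among themselves by type II keratin. Krt71 and Krt73 occurred together in 15 cells, Krt71 without Krt73 in 15, Krt73 without Krt71 in 8 and neither in 7. Median depths were 5650, 8376, 7458 and 13454 UMIs in that order, and depth limits what the absence of a keratin from a cell can mean. The 7 cells with neither, all named Hybrid, had the most cell cycle transcripts. The 12 cell cycle genes summed to 2824 CPM in them (2514 to 3163), against 777 in cells with both, 973 with Krt71 only and 751 with Krt73 only. The claudin Cldn10 was found in all 7 (292 CPM), against 8.45 CPM in cells with both, 37.7 with Krt71 only and 0 with Krt73 only. Nkd2 had 0 UMIs in the 7 cells and was at 211 CPM in cells with both keratins, seen in 13 of 15. It was also seen in cells with Krt73 only, with up to 4 UMIs in a cell, and with Krt71 only. Krt75, a companion layer keratin, was at 573 CPM in the cells with Krt71 only (7 of 15 cells, with 42 UMIs in 1 cell). It had 0 UMIs in cells with both. Cells with Krt73 only also held Krt75, with 14 UMIs in 1 cell and 4 in another, as did a cell with neither (4 UMIs). Lef1, a transcription factor of Wnt signalling in the hair matrix, was at 157 CPM in cells with Krt73 only (6 of 8 cells), 104 with neither, 25.4 with both and 0 UMIs with Krt71 only. Dsc1 was at 194 CPM in cells with both and at 89.7, 30.2 and 18.8 with Krt73 only, Krt71 only and neither. The zinc transporter Slc39a10 was at 800 CPM with Krt71 only and 706 with neither, against 245 and 269 with both and with Krt73 only. Gata3, Dlx3 and Cux1 were present in all 4 groups, with Dlx3 between 60.3 and 123 CPM. These groups and the genes named in them were chosen after the values were seen and no test was made.

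Several regulators of the hair matrix and shaft were called higher in the cells of both libraries, from few UMIs. Summed over the list, the log2 ratio was 0.87 in each library, below 2-fold. Among the wounded cells 6 of 9 tested were called higher, beside 5.48% of all genes, and none lower (median log2 ratio 2.80). Lef1, at chr3:131110471-131224356 (plus strand), had 38 UMIs in 17 cells, 39.5 CPM against 1.60 (4.62). Msx1 had 15 UMIs in 7 cells (5.20), Msx2 18 in 14 (4.50), Foxn1 13 in 10 (3.23), Sox21 48 in 21 (2.21) and Hoxc13 34 in 8 (2.80). In the normal library 5 of 9 were called higher, beside 7.91% of all genes, and 1 lower (median 1.76). Lef1 had 5 UMIs in 4 cells (3.66), Msx1 5 in 2 (4.41) and Msx2 14 in 7 (4.21), Ovol1 stood at 1.76 and Sox21 at 1.25. Foxq1 was called lower (-1.22). Hair shaft keratins came from few cells. In the wounded cells 2 of 5 tested were called higher, Krt32 with 4 UMIs in 1 cell and Krt35. Krt35 had 122 UMIs in 4 cells, 119 of them in 1, and its log2 ratio without that cell was -1.08.

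BMP and Notch signalling, which direct matrix cells to the layers of the follicle, gave a mixed picture. For the normal library 3 of 14 tested genes were called higher, the receptors Notch1 (28 UMIs in 11 cells, log2 ratio 1.38) and Notch2 (1.46) and the BMP target Id3 (1.05), and none lower. For the wounded library none of 15 was called higher and 2 were called lower, Id1 (-1.16) and the ligand Bmp2, with 0 UMIs. The medians were 0.07 and -0.27, and all genes gave 7.91% higher and 2.73% lower in the normal library and 5.48% and 5.42% in the wounded one.

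Few desmosome genes were called. In the wounded cells Dsg1a had 72 UMIs in 35 cells (log2 ratio 2.65, interval from 2.27) and Dsc1 39 in 22 (2.46, 1.94 to 2.93). Both are cadherins of differentiated layers. Dsg3 (-1.10) and Dsc2 (0 UMIs) were called lower, and the plaque protein Dsp, with 582 UMIs in 75 cells, was at 0.09. Of 12 tested genes 2 were called higher and 2 lower (median 0.14), beside 5.48% and 5.42% of all genes. In the normal cells 1 of 12 was called higher, Dsg1a (10 UMIs in 8 cells, 1.21), and none lower (median -0.85), a share near the 7.91% of all genes.

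Many cell cycle genes were called higher in the cells of both libraries. Among the wounded cells 12 of 12 were called higher, beside 5.48% of all genes, with a summed log2 ratio of 1.67 (1.59 to 1.75), although it was -1.22 in the 7 undeposited cells alone. Mki67 had 396 UMIs in 42 of 80 cells, 412 CPM against 102 (2.01, 1.86 to 2.16). Top2a stood at 1.69, and the replication genes Mcm6, Mcm3 and Pcna at 1.91, 1.88 and 1.54. Among the normal cells 7 of 12 were called higher and none lower, beside 7.91% and 2.73% of all genes, with a summed log2 ratio of 1.61 (1.44 to 1.77). Ccna2 stood at 2.79, Top2a, with 52 UMIs in 10 of 15 cells, at 2.29, and Mki67, with 35 UMIs in 9 cells, at 2.04. With cells thinned to 2000 UMIs, any of the 12 genes was found in 66.7% of normal cells of the rule against 33.6% of others, and in 55.1% of wounded ones against 30.0%. The share was not particular to them, since 55.4% of the normal Anal Canal cells had a UMI of them too.

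Most tested companion layer and outer root sheath genes were called lower, with Krt75 called higher in the wounded cells. Over all genes 7.91% were called higher and 2.73% lower in the normal library, and 5.48% and 5.42% in the wounded one, and the list counts that follow stand beside these shares. On the normal side 7 of 8 tested companion layer and outer root sheath genes were called lower and none higher (median log2 ratio -2.12). Krt14 was at 1625 CPM against 7193 (-2.15), Krt17 at 670 against 2842 (-2.09) and Krt6a at -5.13. On the wounded side 5 of 8 were called lower (median -1.19), with Krt14 at 2116 CPM against 4270 (-1.01, but 0.40 in the 7 undeposited cells and 3312 CPM in the 35 cells with 3 to 9 keratin UMIs), Krt17 at 905 against 2343 (-1.37), Krt6a at -1.60 and Krt16 at -4.38. Krt75 was called higher there, with 105 UMIs in 14 cells, 109 CPM against 6.41 (4.09, and 3.37 without the cell with most). Of the 7 basal layer genes 4 were called lower in the normal and 3 in the wounded library, none was called higher, and the others were not called. Of 8 tested bulge and germ genes 3 were called higher and 1 lower in the normal cells (summed log2 ratio -0.53). Their median there was -1.37, but 1.04 with genes at 0 UMIs set to 3 UMIs. In the wounded cells 2 were called higher and 3 lower (median -1.12, or -0.76 with that setting, summed -1.08). Lhx2 (20 UMIs in 8 normal cells, 2.36, and 36 in 16 wounded cells, 1.75) and Tbx1 (2.48 and 1.25) were called higher in both libraries. Sox9 (-2.04) was called lower in the normal cells, and Krt15 (-1.41), Tcf7l1 (-1.92) and Cd34 (-1.77) in the wounded cells. Lgr5 was called higher in the normal cells (8 UMIs in 4 cells, 2.60) and stood at 0.50 in the wounded ones. Of upper follicle and duct genes 3 of 7 were called lower in the normal and 6 of 7 in the wounded library. Cst6 was at 526 CPM against 12714 in the normal library (-4.59) and stood at -4.39 in the wounded one.

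**Figure D5:**
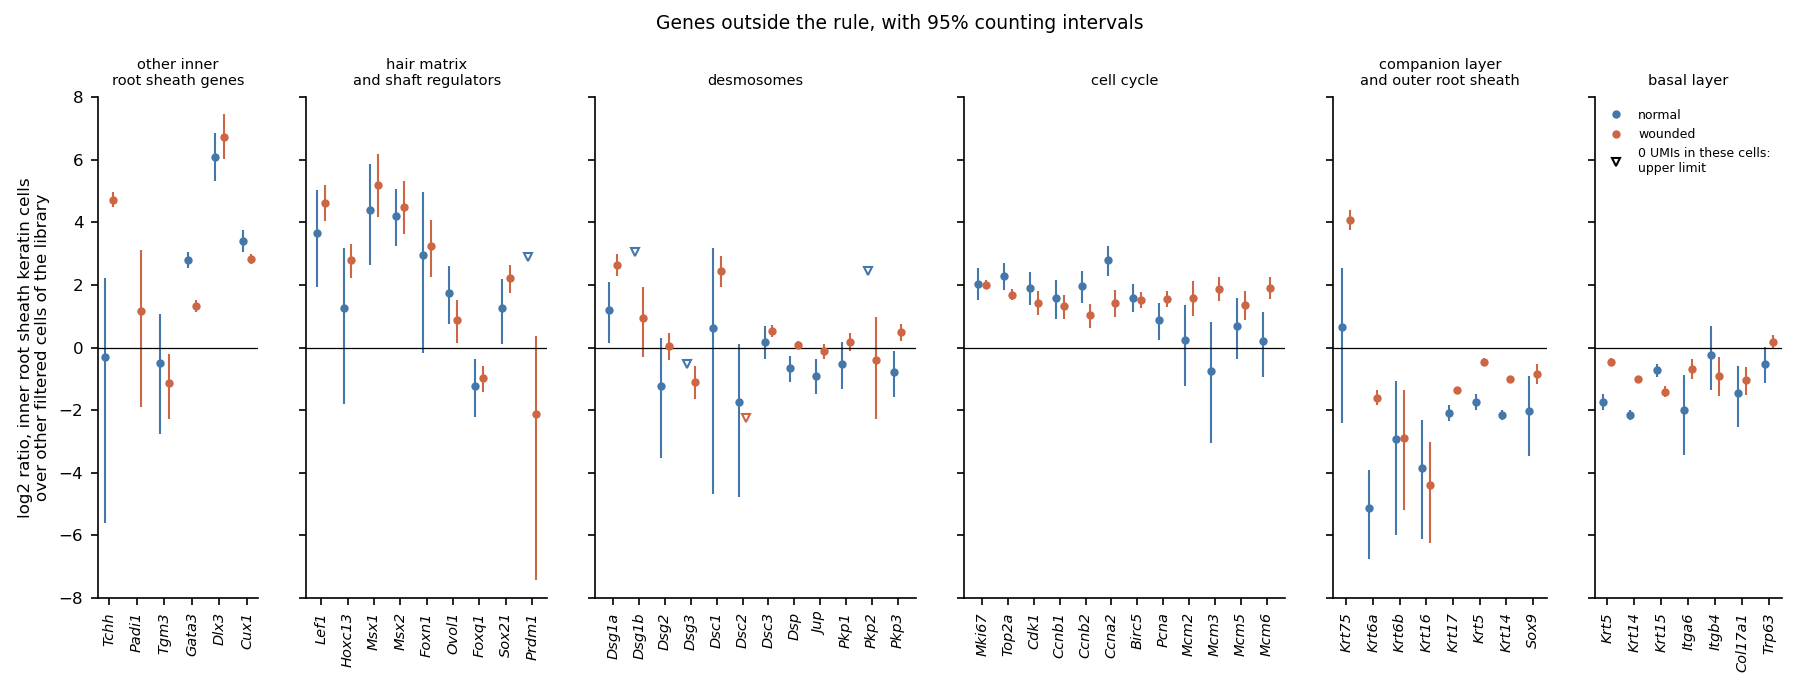
Log2 ratio of summed CPM, inner root sheath keratin cells over the other filtered cells of the same library, for genes of 6 lists (normal blue, wounded red, bars are exact 95% intervals for counting error, open triangles upper limits from 0 UMIs). Dlx3 stands at 6.11 and 6.74, all 12 wounded cell cycle genes lie above 0, and Krt14 stands at -2.15 and -1.01.

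The genes with the firmest contrast, ranked by the bound of the interval, differed between the libraries. Among the wounded cells they included Crym (24 UMIs in 3 cells, log2 ratio 7.40), Prr9 (90 in 7, 6.56), Cldn10 (50 in 15, 5.85), Golga7b (23 in 16, 5.76), Nkd2 (45 in 25, 46.8 CPM against 1.40, 5.06), Hp (42 in 9, 4.38), Gm49425 (26 in 4, 4.66) and Sulf2, an extracellular sulfatase (89 in 41, 92.5 CPM against 5.20, 4.15). S100a3, with 120 of its 140 UMIs in 1 cell, and Wfdc12, with all 67 in 1 cell, rest largely on single cells, as does Gm49425, with 23 of 26 (1.58 without that cell). S100a3 stood at 3.19 without its cell. Crym had 18 of its 24 UMIs in 1 cell and Prr9 46 of its 90, and they stood at 5.41 and 5.53 without those cells. Nkd2, Sulf2 and Golga7b were instead spread over many. The 5 firmest on the low side were Col3a1, Krt13 and Igkc, each with 0 UMIs, Pyy (-7.73) and Col1a2 (-6.40). Among the normal cells 14 of the 15 firmest, all but Dlx3, had at least 95.8% of their UMIs in 1 cell. They were Retn, Serpina3j, Awat1, Scd3, Elovl4, Fa2h, Rarres1, Hacl1, Elovl3, Far2, Sdr16c6, Mgll, Fam13a and Scd1, many of them lipid genes of sebaceous glands. That cell had 27864 UMIs and 3 Krt28 UMIs. Lowest were Krt1 (1 UMI, -7.11), Igkc (2 UMIs), Cst6, and BC100530 and Igha with 0 UMIs each. Without the 6% of cells with the highest Scrublet (doublet) scores Igkc stood at 0.38 (-2.68 to 2.26) and Igha had no usable value.

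Several genes of the wounded cells were also called higher in the normal cells. Sulf2 had 14 UMIs in 7 normal cells (log2 ratio 3.55), Hopx 24 in 9 (3.48), Nkd2 4 in 3 (3.58), Gjb2 67 in 10 (3.44) and Slc39a10 35 in 10 (3.14). In the wounded cells Hopx had 302 UMIs in 51 cells (3.87), Gjb2 131 in 45 (2.84) and Slc39a10 371 in 56 (3.65). These genes, other than Nkd2 and Sulf2, were picked after their values were seen.

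Markers of other cell types were counted in the same cells, against 2.73% of all genes called lower in the normal and 5.42% in the wounded library. Of rectum genes, 7 of 11 tested were called lower in the normal and 10 of 11 in the wounded library, and none higher. Krt8 and Krt19 had 0 UMIs in the normal cells. Of fibroblast genes 3 of 6 and 5 of 6 were called lower, and of smooth muscle genes 4 of 5 and 5 of 5. Of enteroendocrine genes 1 of 5 was called lower in the normal library and 5 of 7 in the wounded one. Endothelial genes gave 1 UMI in each library. Leukocyte genes gave 4 UMIs in 1 normal cell and 5 UMIs in the wounded cells, all Cd74, with the defining Ptprc at 0 in both. Melanocyte genes gave 3 and 13 UMIs, with summed log2 ratios of 1.77 (-0.54 to 3.38) and 1.44 (0.51 to 2.24), and none was called. Of sebaceous and anal gland genes 7 of 10 were called higher and none lower in the normal cells, where 7.91% of all genes were called higher, with 85.2% of their UMIs in 1 cell, and 0 of 10 were called either way in the wounded cells. Of cornified envelope genes 1 of 14 was called higher (Sbsn, 96.0% from 1 cell) and 5 lower in the normal library, with Krt10 at -2.64 and Krtdap at -4.61, and 4 of 15 lower in the wounded library. Immediate-early genes, which dissociation can induce, were called higher in 1 of 14 and lower in 2 of 14 in each library, where all genes gave 7.91% and 2.73% (normal) and 5.48% and 5.42% (wounded). In the wounded cells these were Fosl1 (1.68), Dusp1 (-1.58) and Egr2 (-1.11). Of red blood cell genes 2 of 3 were called lower in the normal library and 0 of 2 in the wounded one.

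The cells of the wounded library were compared with those of the normal library as 1 library against 1, with no replicate check. Of 6175 genes tested 364 were higher in the wounded cells (5.89%) and 734 lower (11.9%), and the median log2 ratio was -0.13. With median-of-ratios scaling, which moves every ratio by 0.30, the split was 696 higher and 409 lower, so which direction held more genes depends on the scaling. Of the 10 firmest differences, 6 were also large and in the same direction in the other filtered cells. Gm42418 stood at a log2 ratio of 5.55 in these cells and 5.03 in the other filtered cells, Nme2 at 6.97 and 6.40, Lars2 at 4.98 and 4.45, Gm10260 at -7.16 and -7.04 (all 29 of its normal UMIs were in 1 of these cells), and Ptp4a1 at -5.67 and -5.11. Atp6v0c had 202 UMIs against 0 and stood at 10.62 in the other cells. Krt1, a keratin of differentiated epidermis, went the other way, with 241 UMIs in 8 wounded cells against 1 UMI (5.62), while it stood at -1.20 in the other cells. Of these UMIs 42.3% were in 1 cell, and under 10% mitochondrial UMIs the ratio was -0.28. Elovl4, Rarres1 and Serpina3j were lower (-4.39, -5.19 and -4.32) and had nearly all of their normal UMIs in the 1 lipid-rich cell.

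Of the lineage factors, Gata3 was lower in the wounded cells, 243 CPM against 680 (log2 ratio -1.48, -1.80 to -1.16), while it stood at 0.00 in the other filtered cells. Among deposited cells alone, of which the normal library had 2, the Gata3 ratio was 2.70. Dlx3 was at 53.0 CPM against 148 (-1.48, -2.17 to -0.77), and the other filtered cells differed in the same direction by more (-2.11). Cux1 was at 380 CPM against 373 (0.02, -0.34 to 0.41). Mki67 was higher by 1.20 in these cells and by 1.23 in the other filtered cells. Hopx stood at 1.36 and 0.96 in the other cells, Dsp at 1.27 and 0.51, Krt15 at -1.91 and -1.24, and Gjb2 at -1.33 and -0.73, each with the same sign in both. Krt75 stood at 3.42 and -0.021 in the other cells, and Tchh, with most of its UMIs in 1 cell, at 5.54 and 0.52. Krt6a, at 2.51 and -1.02 in the other cells, had opposite signs. Of its 140 wounded UMIs 71 were in 1 cell and 57 in another, and the normal cells had 5. Scd1 also had opposite signs, at -1.76 and 1.08, with 95.8% of its normal UMIs in 1 cell. The differences between these pairs of ratios were not tested. By list, 4 of 9 desmosome genes and 3 of 6 companion layer and outer root sheath genes were called higher and none lower, while 2 of 12 cell cycle genes were called higher and 4 lower, beside 5.89% higher and 11.9% lower over all genes. Of rectum genes 2 of 3 tested were called higher and none lower. Bulge and germ genes gave 1 of 4 higher and 3 lower, and sebaceous and anal gland genes 0 of 9 higher and 5 lower. The 2 sets of cells differ in makeup, since 45 of 80 wounded and 4 of 15 normal cells had 10 or more keratin UMIs, and the part of that in these ratios was not tested.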

How the data were processed

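Raw UMI counts per gene and cell were deposited by the authors as 10x matrices for 1 normal and 1 wounded library (17617944 and 88260050 UMIs). Per the labels the reads were processed with Cell Ranger 3.1.0 and Seurat 3.2.2 on mm10. The wounded matrix header names Cell Ranger 4.0.0. The authors also deposited natural log tables of clustered cells (939 normal, 4147 wounded), of which only barcodes and cluster names were used. The inner root sheath keratin cells and the gene lists were chosen with earlier results of these data known. UMIs were summed over cells and divided by summed totals (CPM, not scaled to gene length). Intervals are exact 95% Poisson (levels), binomial (ratios) or Clopper-Pearson (shares). No p-value was computed, since cells are not replicates. The 5 keratins were left out of gene counts. Named genes were those of the lists, and in each library the 15 with the highest lower bound of the ratio among genes with 20 or more UMIs in the cells and the 5 with the lowest upper bound among genes at 100 CPM or more elsewhere. Between libraries the 5 firmest on each side were named. Genes starting mt-, Rpl or Rps were not ranked. A gene that this rule names is not reported here. Libraries were compared over 30406 genes shared by ID. Against 0 UMIs, 3 UMIs gave the bound. Scrublet marked 2 normal and 1 wounded cells, too few to have worked, so no cell was removed as a doublet; the 6% of highest scores held 2 of 15 and 9 of 80 of the cells. Scripts ran in Python 3.11.15 with numpy 2.4.6, pandas 2.3.3, scipy 1.17.1, scanpy 1.11.5 and matplotlib 3.10.9 and were tested on simulated data.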

Additional observations from a re-analysis of the deposited data

How the results depend on the processing

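No paired analysis was possible because there was 1 library per condition. Of 83 alternative values of the main results 48 stayed within their intervals or within 1.5 times the count, and of 888 values for 72 single genes and lists 543 did. The causes were not tested. Shares of 0.969% and 1.53% became 0.517% and 1.11% with 5 keratin UMIs and 0.258% and 0.861% with 10; with 2 the wounded share was 2.79%. The other inner root sheath genes had summed log2 ratios of 2.90 (normal) and 2.35 (wounded). These were 2.40 and 1.69 with 2 UMIs, 3.73 and 2.74 with 5, and 4.22 and 3.08 with 10. They were 2.55 and 2.21 with median-of-ratios scaling and 2.39 and 2.77 after thinning. Deposited cells gave -0.62 (reversed in sign, -3.66 to 1.24, 2 normal cells) and 2.58, and undeposited cells 2.57 and 0.61. For wounded cells the ratio was 2.53 under 10% mitochondrial UMIs, 2.45 without the highest Scrublet scores, and 2.62 as a mean of cells. Genes higher in normal cells (1004) were 565 with median-of-ratios scaling, 411 after thinning and 318 in deposited cells. Genes higher in wounded cells (831) were 541 with 2 UMIs and 255 in undeposited cells. Genes 2-fold apart between libraries were 722 with 5 UMIs, 515 with 10, 202 after thinning, 384 in deposited and 655 in undeposited cells, and 324 with a minimum of 100 UMIs. Median-of-ratios scaling moved ratios by -0.35 (normal), -0.14 (wounded) and 0.30 (between libraries).

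The next 2 alternatives were chosen after seeing the data. Without the cell with most keratin UMIs the wounded sum was 2.04. Without cells over 1% sebaceous UMIs the normal sum was 3.10, and the lipid genes of the normal cells reversed, Elovl4 to -2.38, Hacl1 -1.79, Elovl3 -1.37, Far2 -2.20, Mgll -1.14 and Scd1 -1.12. Scd3, Fa2h, Rarres1 and Sdr16c6 then had 0 UMIs, and bounds from 3 UMIs are at most -0.11, -0.37, -0.28 and -1.34. With 5 keratin UMIs Elovl4 was at -1.96, Elovl3 -0.56 and Scd1 -2.18, and Scd3, Sdr16c6 and Mgll had 0 UMIs (bounds at most -0.068, -0.51 and -1.70). With 10 Elovl3 was at -0.70 and Scd1 -2.32, and Elovl4 and Mgll had 0 UMIs (at most -0.51 and -0.83). Between libraries Elovl4 (2.95) and Serpina3j (at least 1.08, from 0 normal UMIs) reversed with 5 UMIs, Elovl4 (at least 2.04, from 0) with 10, Krt1 (-0.28) under 10% mitochondrial UMIs and Gata3 (2.70) in deposited cells. In the normal library Igkc (0.38) reversed without the highest Scrublet scores, and Gata3 (-0.21) and Krt15 (0.54) in deposited cells. In the 7 undeposited wounded cells the cell cycle sum (-1.22), Gata3 (-0.053), Mki67 (-1.41), Top2a (-1.25), Krt14 (0.40) and Krt5 (0.39) reversed. Where 0 UMIs left no usable bound no value was given. This held for many lipid genes with 5 or 10 keratin UMIs or in deposited cells, for Dlx3, Lef1 and Tchh in the deposited normal cells (Dlx3 between libraries too), and for Lef1, Crym, Prr9, S100a3 and Cldn10 among others in the undeposited wounded cells. A gene seen in 0 of the 15 normal cells has an exact upper limit of 21.8% of cells.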

Other observations

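The reporter transcript ZsGreen1, a feature of the normal library only, was found in 0 of the 15 inner root sheath keratin cells (exact upper limit 21.8%) and in 75 of 1533 other filtered cells (4.89%, 3.87 to 6.09%), with 0 of 63 Rectum cells. Median depths were 11335, 9433 and 10885 UMIs. With so few cells a difference was not detectable.

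Barcodes outside the filters also held these keratins. In the wounded library 19 of 11991 had 3 or more keratin UMIs (0.158%, 0.0954 to 0.247%), 13 of them outside by mitochondrial share and 6 by the gene limits. Their median mitochondrial share was 37.2%, their median keratin sum 7 UMIs and their highest 396. In the normal library 2 of 1016 did (0.197%, 0.0238 to 0.709%).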
